A study of Mus musculus with 15 samples.

Results

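Heart muscle cells collected 7, 14 and 28 days after a whole-body exposure to iron ions (the late side) were compared with heart muscle cells collected 1 and 3 days after the same exposure (the early side). The late side held 6 arrays, 2 from each day, and the early side held 6 arrays, 3 from each day, so that 12 of the 15 arrays used here entered the test. Each day carried the same weight within its side, and no sham array entered the fit. The cells were left ventricular cardiomyocytes of male C57Bl/6NT mice aged 8 to 9 months, released with collagenase and selected by a stepwise return of calcium, a preparation that per the labels could also hold a few inflammatory or endothelial cells. Exposed mice had received 15 cGy of iron ions, at 1 GeV per nucleon and about 151 keV deposited per µm of track. Such ions are the heavy charged nuclei met in galactic cosmic rays. The 3 sham arrays, 2 of day 1 and 1 of day 3, are given beside the iron values as a reference. No sham array used here is later than day 3, so exposure, age, handling and the hour of collection cannot be told apart in a difference between the sides. The labels do not state whether the arrays of a day came from separate mice, so p-values measure no more than array-to-array spread, part of which may be technical.

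The largest differences lay in groups of genes that need a short introduction. The circadian clock is a transcription loop of the cell: the activators Arntl (also called Bmal1) and Clock switch on the Per, Cry, Nr1d and Ciart repressors and output factors such as Dbp, and these in turn hold the activators back, so that activators and repressors peak at opposite hours of the day in heart muscle. Small nucleolar RNAs are short RNAs, mostly released from introns of host genes, that guide chemical marks onto ribosomal and spliceosomal RNA. Class II histocompatibility proteins display peptides on macrophages, dendritic cells and B cells, and heart muscle cells are not known for them.

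Values are log2 signals of the array as deposited, and a difference is the late mean minus the early mean on that scale, given with its standard error (SE). The test was limma over the 9969 genes with a mean signal at or above the median gene, with Benjamini-Hochberg adjusted p-values across those genes and a threshold of 0.05. Of these genes, 2064 passed (20.7%), 994 higher late (9.97%) and 1070 lower late (10.7%), and 3538 had an unadjusted p under 0.05. The rises were larger than the falls: 168 genes rose and 9 fell by more than 2-fold, and the median difference over all genes tested was -0.034. The 6 late and 6 early arrays did not overlap for 432 genes (4.33%). Days within a side differed for 102 genes (1.02%, F test in the same fit), and 71 of those also passed between the sides. Among the genes higher late, day 7 was the highest late day for 465 and day 28 for 479. Among those lower late, day 7 was the lowest late day for 637 and day 28 for 375.

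The count of genes that passed rested on few arrays. The 2 arrays of day 28 differed less than any other pair of 1 day (SD of the difference over genes 0.137, against 0.206 to 0.351 for other pairs), and with the pair taken as 1 replicate 1152 genes passed between the sides and 0 differed within a side (limma; 2519 had an unadjusted p under 0.05 in the main F test). Leaving out 1 array lowered the count between the sides to 1049 and 1315 for replicates 1 and 2 of day 28, 1296 for replicate 1 of day 7, 1363 for replicate 2 of day 3 and 1371 for replicate 3 of day 1. Without day 3, day 7 or day 28 it was 673, 1252 or 1057. The count within a side was 0 without either array of day 28, 26 and 40 without replicates 2 and 3 of day 3, 173 and 166 without replicates 1 and 3 of day 1, 180 and 396 without replicates 1 and 2 of day 7, and 234 without replicate 2 of day 14. The markers of the labelled cell type were strong: all 12 cardiomyocyte markers were above that minimum, and Myh6, the main heavy chain of adult mouse ventricular myosin, ranged from 12.02 to 12.28 over the 12 iron arrays. Lists of genes are described by how many members passed, read against the percentages above, and a list score is the mean of its tested members in an array after each gene was centred over the 15 arrays.

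**Figure D1:**
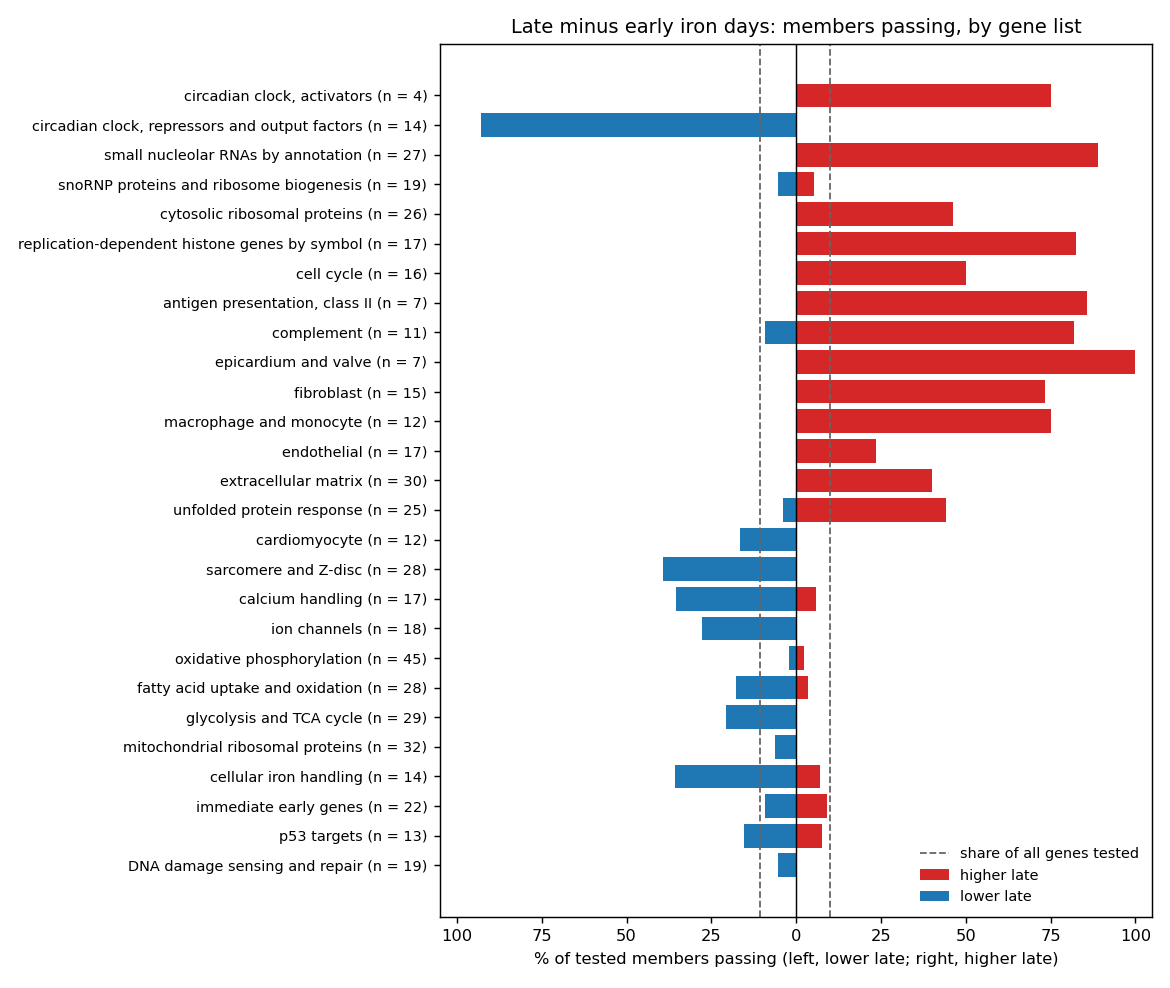
Share of tested members of 27 gene lists that passed between late and early iron days, with members higher late to the right and members lower late to the left, in % of the members tested (n). Dashed lines mark the shares over all genes tested, 9.97% and 10.7%, and the clock repressors reach farthest to the left, while small nucleolar RNAs, class II genes and epicardial markers are among those far to the right.

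Repressors and output factors of the circadian clock were lower and its activators Arntl and Clock higher on the late days. Of the 14 repressors and output factors tested, 13 fell and 0 rose (median -0.90). The list named for the activators held 4 tested genes, of which Arntl, Clock and Nfil3 rose and Rora did not pass (median 0.37), and Nfil3 is itself a repressor. Arrays of the sides did not overlap for 10 of the 14 and for 1 of the 4. The list score of repressors and output factors ran from 0.27 to 0.59 in the early arrays, from 0.20 to 0.47 in the sham arrays and from -0.82 to -0.54 in the late arrays. These scores separate every late array from every early and sham array, and the sham arrays lie with the early side. The falls held in 10 to 13 members in each setting tried that left out an array, a day or the day 28 pair with replicate 1 of day 14. Without replicate 1 of day 1, 12 members of this list fell and 1 rose. The 3 rises of the other list were less firm: 2 were left without replicate 2 or 3 of day 1, replicate 2 or 3 of day 3, replicate 1 of day 7, replicate 2 of day 14 or either array of day 28, without day 3 or day 28, and with the day 28 pair as 1 replicate. Without replicate 3 of day 3 1 gene of that list fell, and without day 28 and replicate 1 of day 14 1 rise was left.

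Arntl, the activator at the head of the loop, was among the genes with the largest rise. Its log2 signals were 5.52, 4.87 and 4.43 on day 1 and 4.75, 4.14 and 4.37 on day 3. They were 7.26 and 6.77 on day 7, 7.26 and 7.08 on day 14, and 7.19 and 7.14 on day 28. The sham arrays stood at 5.12 and 4.80 on day 1 and 5.59 on day 3. All late arrays lay above all early and sham arrays, and the 3 late days were nearly level. The rise was 2.43 (SE 0.173, limma adjusted p = 1.83e-05). All its early arrays but replicate 1 of day 1 lay under the minimum mean signal of the test (5.51). Arntl was thus tested through the arrays in which it is high, and signal over background on the early side is unknown, so no fold is given. Nfil3, a repressor that competes with Dbp for its sites, rose by 0.45 (SE 0.073, adjusted p = 0.00233), from an early median of 6.10 to a late median of 6.50, with overlapping arrays. Clock, the partner of Arntl, rose by 0.30 (SE 0.0802, adjusted p = 0.0229), and its early arrays reached 8.42 while its late arrays started at 8.22. Rora, which drives Arntl, had a difference of -0.16 and did not pass (adjusted p = 0.149).

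Ciart, a repressor of the loop, had the largest fall of all genes that passed. Its log2 signals were 8.32, 8.12 and 8.19 on day 1, 8.51, 8.63 and 8.78 on day 3, and 8.35, 8.42 and 7.75 in sham. They were 5.12 and 5.89 on day 7, 5.85 and 5.04 on day 14, and 4.35 and 4.43 on day 28. Day 28 was the lowest day, although the days within a side did not pass as different (adjusted p = 0.0733). Ciart fell by 3.31 on the log2 scale (SE 0.15, limma adjusted p = 1.00e-06), and a second probe set of the gene gave -2.81. Its late mean of 5.11 lay under the minimum mean signal of the test (5.51). Signal over background on the late side is thus unknown, and no fold is given.

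The output factors and period genes fell in the same arrays. Dbp, the output factor that opposes Nfil3, had an early range of 9.72 to 10.03 (median 9.85) and a late range of 7.58 to 8.25 (median 8.15), with sham at 9.51 to 9.93. It fell by 1.82 (SE 0.0928, 3.53-fold lower, adjusted p = 1.91e-06). Per3 had an early range of 6.88 to 7.45 (median 7.11) and a late range of 4.93 to 6.04 (median 5.33). It fell by 1.68 (SE 0.0992, limma adjusted p = 6.31e-06). Within the late side Per3 was lowest on day 7 (mean 5.14) and highest on day 28 (5.98). Per2 ran from 6.54 to 7.23 early and from 4.95 to 5.61 late, with its lowest mean on day 14 (5.05). It fell by 1.58 (SE 0.111, limma adjusted p = 1.83e-05). The late means of Per3 (5.47) and Per2 (5.36) also lay under the minimum of the test (5.51), so no fold is given. Per1 fell by 0.83 (SE 0.0878) and, unlike Per3, was lowest on day 28 (mean 6.14, against 6.60 on day 7 and 6.65 on day 14).

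Falls were also found in other members. Tef, which shares sites with Dbp, fell by 1.04 (SE 0.0907) and Hlf, the third of that family, by 0.61 (SE 0.149). Usp2, a deubiquitinase with a rhythmic transcript, fell by 0.92 (SE 0.0765), Wee1, a cell cycle kinase under clock control, by 0.93 (SE 0.132), and Bhlhe41, a repressor that competes for the clock's sites, by 0.88 (SE 0.0759). Cry2, a partner of the Per proteins, fell by 0.71 (SE 0.0814) with no overlap of arrays, and its 3 late days were level at 6.15 to 6.21. Nr1d2 fell by 0.35 (SE 0.0609) and Bhlhe40 by 0.47 (SE 0.138), both with overlapping arrays. Nr1d1, the repressor of Arntl, was the member that did not pass: it stood at 8.03 to 9.39 early and 8.41 to 9.30 late, with a difference of 0.33 (SE 0.195, adjusted p = 0.248).

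**Figure D2:**
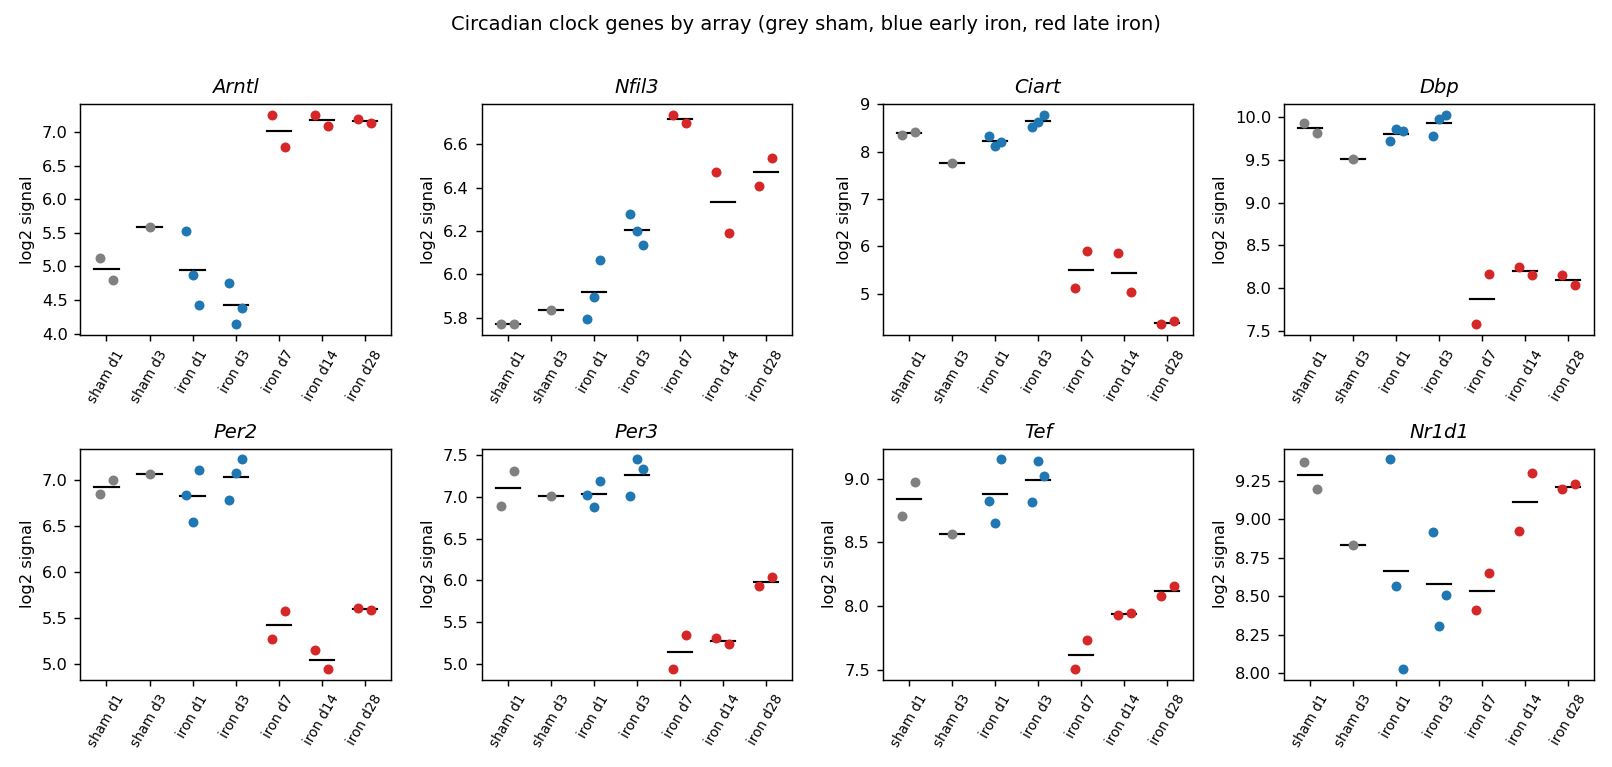
Log2 signal of 8 circadian clock genes by group (d is the day), with 1 point per array and a bar at the group mean, grey for sham, blue for early iron and red for late iron. Arntl is higher and Ciart, Dbp, Per2, Per3 and Tef are lower in all 6 late arrays than in all early and sham arrays, while Nr1d1 overlaps.

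The promoters of the leading clock genes are shown because 3 textbook elements of the clock can be read in them. These are the E-box CACGTG, which Arntl and Clock bind, the D-box TTATGTAA of Dbp, Tef, Hlf and Nfil3, and the ROR element TAGGTCA of the Ror and Nr1d receptors. Letters were searched on both strands in RefSeq windows of 300 bases, 250 before and 50 after each start (GRCm38.p6). Of 27025 genes with such windows (32851 in all), 8.09% hold the E-box in any window, 1.11% the D-box and 2.97% the ROR element. Of the 18 clock genes tested, 15 had a window, and 4 held an E-box (Bhlhe41, Ciart, Per1 and Tef), 1 a D-box (Per3) and 2 a ROR element (Arntl and Nfil3). The 250 bases before the start of Ciart (chr3:95882229-95882478, minus strand) hold 3 E-boxes, whose first bases lie 116, 58 and 44 bases before the start. Those before Per3 (chr4:151044666-151044915, minus strand) hold 2 D-boxes at 205 and 158 bases. The short stretch of Arntl (chr7:113207531-113207557, plus strand) lies just inside 1 of its starts and holds the ROR element. Capitals mark the elements, and a match of letters is a description and not a bound site.
Ciart: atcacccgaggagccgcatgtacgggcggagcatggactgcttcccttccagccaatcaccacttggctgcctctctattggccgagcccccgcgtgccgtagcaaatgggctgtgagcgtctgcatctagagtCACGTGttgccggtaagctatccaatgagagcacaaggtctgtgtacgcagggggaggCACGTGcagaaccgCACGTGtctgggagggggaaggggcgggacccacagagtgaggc
Per3: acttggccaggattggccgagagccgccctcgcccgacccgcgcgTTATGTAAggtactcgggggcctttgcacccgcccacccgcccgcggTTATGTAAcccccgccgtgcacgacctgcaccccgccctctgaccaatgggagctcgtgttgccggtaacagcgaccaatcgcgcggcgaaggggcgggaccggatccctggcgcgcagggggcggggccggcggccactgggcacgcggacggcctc
Arntl: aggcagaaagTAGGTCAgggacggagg

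Small nucleolar RNAs rose as a class. Of the 27 tested that the gene annotation places in this class, 24 rose and 0 fell, with a median of 1.35, and the arrays of the sides did not overlap for 16. Grouped by symbol, which is not a split of these 27 because it takes in Snord73b, 11 of 13 box C/D RNAs, which guide methylation of the sugar, rose with a median of 1.53. Of 14 box H/ACA RNAs, which guide pseudouridine formation, 13 rose with a median of 1.21. Snord55, Snora31 and Snord14e did not pass, with differences of 0.18, 0.13 and -0.28. Of 19 other short structured RNAs (such as the RNA parts of RNase P and RNase MRP, telomerase RNA and Y RNA), 13 rose and 0 fell, with a median of 0.69. These 19 include Snord73b, counted above among the box C/D RNAs by name but filed by the annotation as a nuclear RNA, which rose by 2.44 (SE 0.348, adjusted p = 0.00107) with overlapping arrays. They also include the 2 small Cajal body RNAs tested, which guide marks on spliceosomal RNA: Scarna13 rose by 1.00 (SE 0.0969) and Scarna17 by 0.83 (SE 0.107).

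Day 3 did not stand as a unit for these RNAs. Snora3, a box H/ACA RNA, stood at 7.82, 7.17 and 7.18 on day 1 and at 7.41, 8.98 and 9.22 on day 3. It then stood at 9.57 and 9.98 on day 7, 10.43 and 10.32 on day 14, and 10.47 and 10.75 on day 28, with sham at 7.43, 7.18 and 7.54. Replicate 1 of day 3 lay with day 1 and sham, and replicates 2 and 3 lay close to the late arrays. The rise between the sides was 2.29 (SE 0.265, 4.89-fold, adjusted p = 0.000329), and a second probe set gave 2.57. Snord82, a box C/D RNA, showed the same split, with 7.00, 8.91 and 9.26 on day 3 against 6.24 to 6.71 on day 1 and 9.39 to 9.73 on the late days. It rose by 2.13 (SE 0.304, 4.37-fold, adjusted p = 0.00108), but without day 1 the difference was 1.17 and did not pass. Of the 27, 21 were higher in both replicates 2 and 3 of day 3 than in replicate 1, and 24 were higher in both than in all 3 arrays of day 1. Over all genes tested these counts were 3276 and 1464 of 9969. The part of this difference between arrays of day 3 in the rise was not tested, and without day 3 23 of the 27 rose, while without day 1 it was 19.

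Further members spanned a wide range of rises. Snora74a ran from 6.43 to 8.56 early and from 9.27 to 10.06 late and rose by 2.27 (SE 0.298, 4.83-fold). Snord35b ran from 4.05 to 6.32 early and from 6.61 to 7.22 late, with a difference of 1.97 (SE 0.233). The early mean of Snord35b (4.99) lay under the minimum mean signal of the test (5.51). Its signal over background on the early side is unknown, so no fold is given. Snord104 rose by 2.04 (SE 0.234) and Snord33 by 2.02 (SE 0.302), with overlapping arrays. Smaller rises with small standard errors were those of Snord49b (1.40, SE 0.0961, adjusted p = 1.64e-05), Snord15b (1.33, SE 0.0994) and Snora21 (1.35, SE 0.102). Snora73a and Snora73b are near copies of each other, so their rises of 0.81 and 1.07 may not be independent. For 22 of the 27 all 6 late arrays lay above all 3 sham arrays, against 353 of 9969 genes.

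**Figure D3:**
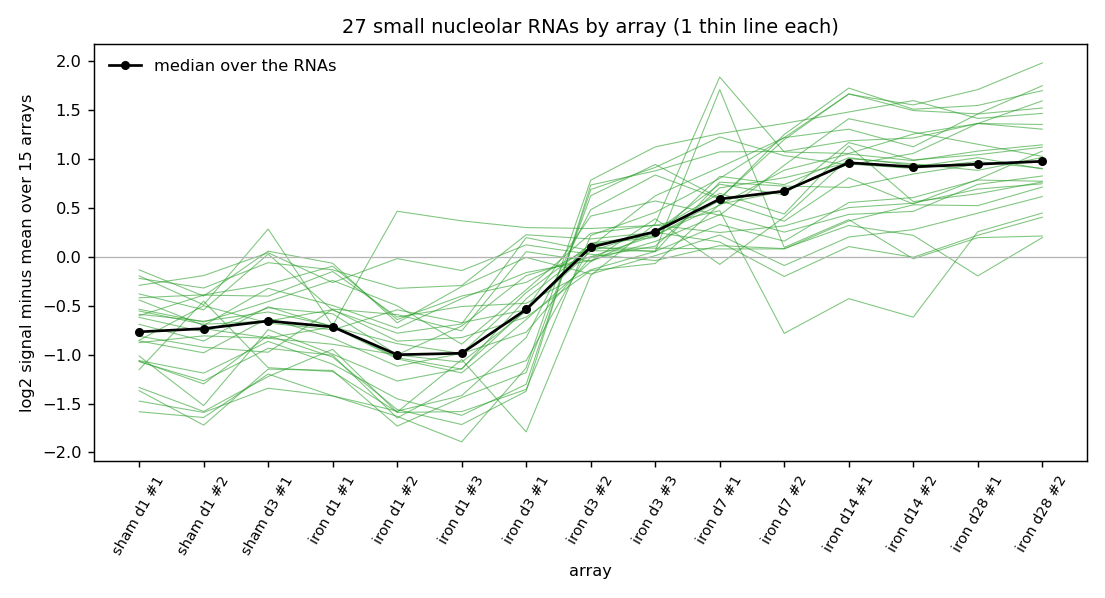
Log2 signal of 27 small nucleolar RNAs in each of the 15 arrays (d is the day, # the replicate), each RNA centred on its mean over the arrays, with the median in black. The median is negative in the sham arrays, day 1 and replicate 1 of day 3, near 0.1 to 0.3 in replicates 2 and 3 of day 3, and highest on days 14 and 28.

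The proteins that work with these RNAs did not move as a list. Of 19 genes of small nucleolar ribonucleoproteins and ribosome building, 1 rose (Npm1, nucleophosmin, by 0.23) and 1 fell (Polr1a, the large subunit of RNA polymerase I, by 0.32), with a median of 0.03. Of 11 host genes tested, 3 rose and 1 fell. Gas5, a non-coding host of several box C/D RNAs, rose by 1.57 (SE 0.169, adjusted p = 0.000235) from an early median of 7.58 to a late median of 9.59, and its day 3 mean of 8.58 also lay between day 1 (7.25) and day 7 (9.14). The coding hosts Rps3 and Hspa8 rose by 0.28 and 0.16, and Eif4a1 fell by 0.16. Because small nucleolar RNAs lie inside introns, signal from unspliced host RNA and from the short RNA cannot be told apart here. Of 26 cytosolic ribosomal protein genes, 12 rose and 0 fell (median 0.19), led by Rpl10 (0.43, SE 0.0463, adjusted p = 0.000221). That count was 5 with the day 28 pair as 1 replicate, and 1, 6 and 4 without day 3, day 7 and day 28. It was 4 and 7 without replicates 1 and 2 of day 28, 6 without replicate 2 of day 3, and 7 without replicate 2 of day 1 or replicate 1 of day 14. Of 32 mitochondrial ribosomal protein genes, 2 fell and 0 rose (median -0.14).

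Class II genes were higher on the late days, most of all in replicate 1 of day 7. Of 7 tested, 6 rose and 0 fell, with a median of 1.78, and the sides did not overlap for 4. H2-Aa, the gene of an alpha chain, stood at 6.79, 6.41 and 6.51 on day 1 and 6.62, 6.68 and 6.88 on day 3. It stood at 9.77 and 8.83 on day 7, 7.98 and 8.01 on day 14, and 9.10 and 8.80 on day 28. The sham arrays, at 8.28, 7.74 and 8.53, lay above all early arrays, and 2 of the 3 lay above the lowest late array. H2-Aa rose by 2.10 (SE 0.141, 4.29-fold, adjusted p = 1.64e-05), and its differences ran from 1.83 to 2.48 over all settings tried. Cd74, the chaperone of class II proteins, ran from 7.09 to 7.46 early, from 8.24 to 10.19 late and from 8.38 to 9.33 in sham, and rose by 1.84 (SE 0.148). H2-Eb1 rose by 1.84 (SE 0.126) and H2-Ab1 by 1.78 (SE 0.136), both without overlap. Ctss, the protease that trims the chaperone, rose by 1.24 (SE 0.185), and H2-DMa, which helps load peptides, by 0.67 (SE 0.115), with overlap. Ciita, the master coactivator of the class II genes, had a difference of 0.05 (SE 0.12, adjusted p = 0.798). The list score was highest in replicate 1 of day 7 (1.49), against 0.71 in replicate 2 and 0.81 and 0.65 on day 28.

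The class II promoters carry the Y-box, an inverted CCAAT element of the shared control region, and are shown because those genes rose together. Its letters TGATTGG were searched on both strands as above, and 9% of the 27025 genes hold them in any window. Of the 7 class II genes tested, 4 had a window and 2 held a match. The first base of the match lies 50 bases before the start of H2-Aa (chr17:34287824-34288073, minus strand) and 61 bases before that of H2-Eb1 (chr17:34305617-34305866, plus strand). Each stretch is the 250 bases before the start, with the Y-box in capitals.
H2-Aa: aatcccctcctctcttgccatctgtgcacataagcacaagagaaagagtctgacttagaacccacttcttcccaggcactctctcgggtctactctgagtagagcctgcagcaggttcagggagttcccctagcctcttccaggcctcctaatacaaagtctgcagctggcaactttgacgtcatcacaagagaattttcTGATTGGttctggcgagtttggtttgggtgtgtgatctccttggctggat
H2-Eb1: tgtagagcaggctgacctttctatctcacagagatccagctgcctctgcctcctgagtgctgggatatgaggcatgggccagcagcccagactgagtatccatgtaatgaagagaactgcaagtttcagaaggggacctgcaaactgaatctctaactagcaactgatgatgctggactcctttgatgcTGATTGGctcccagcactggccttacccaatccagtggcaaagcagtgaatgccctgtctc

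Other genes of macrophages and innate defence rose too. Of 12 macrophage and monocyte markers, 9 rose and 0 fell (median 0.92). Lyz2, the macrophage lysozyme, ran from 8.32 to 9.74 early, from 9.46 to 11.01 late and from 9.69 to 10.60 in sham, and rose by 1.26 (SE 0.203, adjusted p = 0.00216). Adgre1 (a surface antigen of mouse macrophages) and Csf1r (the receptor of the macrophage growth factor) rose by 0.94 and 0.92. Of 11 complement genes, 9 rose and 1 fell (median 0.96), led by C2 (1.24, SE 0.115, adjusted p = 0.000101) and the C1q chain C1qc (1.27, SE 0.203). Fcna, a lectin of the complement pathway made by macrophages, had a difference of 1.94 (SE 0.222). It was highest on day 7 (mean 8.19, against 5.97 on day 14 and 7.29 on day 28). Its early mean of 5.21 lay under the minimum mean signal of the test (5.51), so no fold is given. In these lists replicate 1 of day 1 stood apart from the early side, with a macrophage score of 0.25 where the other 5 early arrays ran from -0.84 to -0.44. The sham arrays, at 0.23 to 0.54, lay nearer the late side, whose scores ran from -0.21 to 1.19. Without day 3, which leaves that array as 1 of 3 early arrays, 1 macrophage marker and 2 complement genes rose, and without day 7 the counts were 5 and 4. In bulk samples such as these, fewer cells of a type and less RNA per cell cannot be told apart.

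Interferon and class I genes moved less. Of 13 interferon response genes 4 rose (median 0.22), among them Oasl2, an antiviral protein (1.08, SE 0.164, no overlap), and Irf1, a transcription factor of the response (0.75, SE 0.12). Of 10 class I and immunoproteasome genes 4 rose (median 0.21), among them B2m, the shared light chain (0.57), and the peptide transporter gene Tap1 (0.47). Of 12 inflammatory and NF-kB genes 4 rose (median 0.39), among them Nfkbia and Rela with differences of 0.44 and 0.35. The interferon count was 2 without day 3 and 7 without day 14, and the class I count 2 without day 3 or day 28. The NF-kB count was 1 without day 3 or day 7 and 8 without day 14. It was 2 without either array of day 28, without replicate 2 of day 3 or without replicate 1 of day 7, and 7 without replicate 2 of day 7. In the main test 0 members of these 3 lists fell.

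Markers of the outer heart surface and of connective tissue were higher on the late side. All 7 epicardium and valve markers tested rose (median 1.26), and 4 did not overlap. Upk3b, a uroplakin of the mesothelium, ran from 7.12 to 8.19 early, from 8.46 to 10.05 late and from 7.82 to 8.64 in sham, and rose by 1.44 (SE 0.137, adjusted p = 0.000121). Lrrn4 and Upk1b, also mesothelial, rose by 1.55 (SE 0.195) and 1.38 (SE 0.176), Krt19, a keratin, by 1.26 (SE 0.16), and Wt1, the transcription factor of the epicardium, by 0.79 (SE 0.103). The list score was highest in replicate 1 of day 7 (1.36), but replicate 2 (0.66) lay below both arrays of day 28 (0.72 and 0.74). It was lowest of the late days on day 14 (-0.08 and 0.01). Krt19 had means of 7.59 on day 7 and 6.21 on day 14. These 7 rises were found again with the day 28 pair as 1 replicate and without each single array, and 5 remained without day 28 and replicate 1 of day 14.

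Of 15 fibroblast markers 11 rose and 0 fell (median 0.64), and of 30 matrix genes 12 rose and 0 fell (median 0.40). Igfbp6, a binding protein of insulin-like growth factors, ran from 6.23 to 7.48 early and from 7.67 to 9.19 late, and rose by 1.48 (SE 0.146, adjusted p = 0.000145). Dcn, the collagen-binding proteoglycan decorin, ran from 10.03 to 11.12 early, from 10.57 to 11.47 late and from 11.18 to 11.47 in sham, and rose by 0.67 (SE 0.13). Mgp, an inhibitor of calcification, rose by 1.42 (SE 0.232) and Fmod, another collagen-binding proteoglycan, by 1.27 (SE 0.137). Col3a1, a fibrillar collagen, rose by 0.95 (SE 0.22). The fibroblast score of replicate 1 of day 1 was 0.37, against -0.78 to -0.41 in the other early arrays, -0.30 to 0.61 late and 0.50 to 0.65 in sham. The fibroblast count was 6 with the day 28 pair as 1 replicate and 1, 5 and 1 without day 3, day 7 and day 28. It was 1 without day 28 and replicate 1 of day 14. It was 5 without replicate 1 of day 28 or of day 7, 6 without replicate 2 of day 1 or of day 3, and 7 without replicate 3 of day 1 or replicate 2 of day 14. The matrix count was 7 with the day 28 pair as 1 replicate, 1 without day 28 and replicate 1 of day 14, and 19, 2, 5 and 5 without day 1, day 3, day 7 and day 28. It was 19 without replicate 1 of day 1, and 7 without replicate 2 of day 1, replicate 2 of day 3, replicate 1 of day 7 or replicate 1 of day 28.

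Endothelial markers showed the same sign with weaker support. Of 17 tested, 4 rose and 0 fell (median 0.45), among them Vwf, the clotting factor stored in endothelium (0.59, SE 0.152, adjusted p = 0.0203), and Tek, an angiopoietin receptor (0.58, SE 0.18). Pecam1, a junction protein of the endothelium, had a difference of 0.49 (adjusted p = 0.0838). The count was 14 without replicate 1 of day 1, whose endothelial score of 0.53 stood against -0.66 to -0.32 in the other early arrays. It was 13, 0, 2 and 0 without day 1, day 3, day 7 and day 28 in turn. It was 0 without replicate 2 of day 1, replicate 2 of day 3, replicate 1 of day 7 or replicate 1 of day 28, and 1 without replicate 3 of day 1, replicate 1 of day 3, replicate 2 of day 14 or replicate 2 of day 28.

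**Figure D4:**
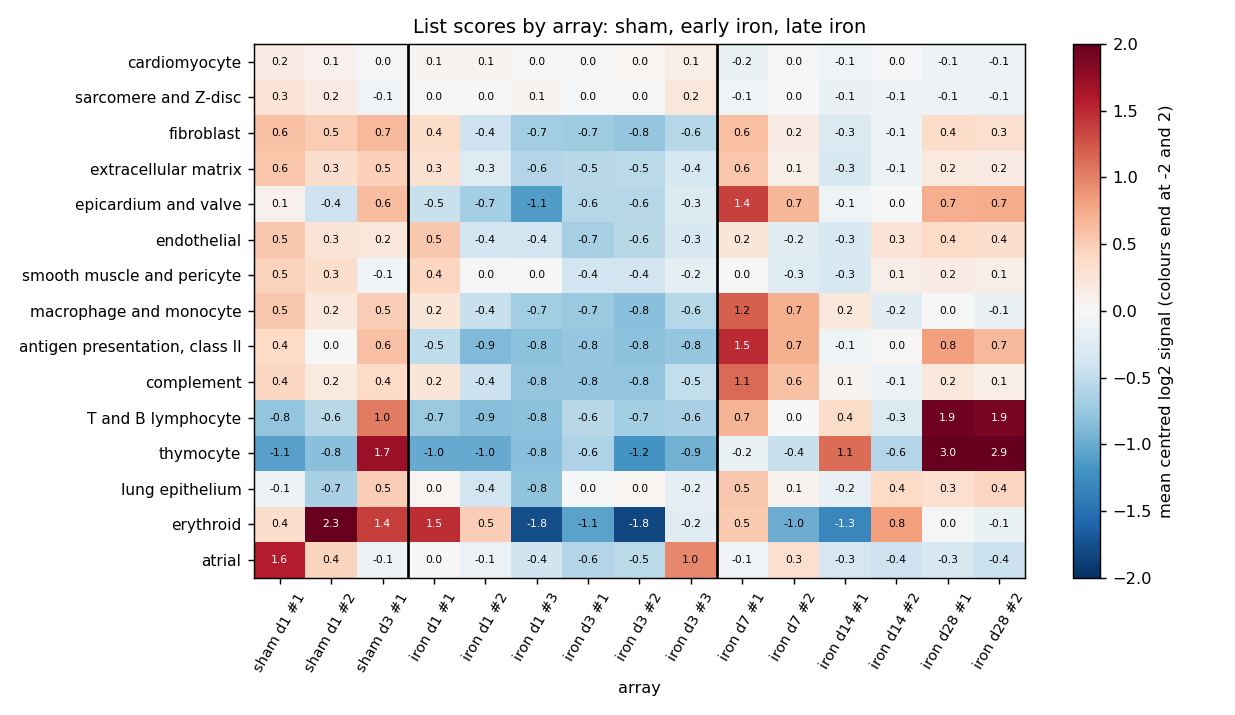
List scores (mean of a list's tested genes in log2 units, each gene centred over the 15 arrays) by array, with sham, early iron and late iron arrays set apart by lines, d for the day and # for the replicate. Scores of connective, endothelial and macrophage lists are negative in 5 early arrays and positive in replicate 1 of day 1, and the thymocyte and lymphocyte scores are highest in both arrays of day 28.

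Most genes of lymphocytes were highest on day 28. Of 5 T and B lymphocyte markers tested 4 rose and 0 fell (median 1.39), and 2 did so without day 28. Cd8b1, a chain of the CD8 coreceptor of T cells, stood at 3.97 to 5.01 in the early arrays, 6.06 and 5.67 on day 7, 7.90 and 5.20 on day 14, and 10.08 and 9.997 on day 28. Sham stood at 4.10 and 4.63 on day 1 and 8.65 on day 3. The sides did not overlap, but the days within a side differed (adjusted p = 0.0303), and the sham array of day 3 exceeded 4 of the 6 late arrays. The difference was 3.11 (SE 0.358, adjusted p = 0.000314) and 1.15 without day 28 and replicate 1 of day 14. All early arrays of Cd8b1 and Cd4 lay under the minimum mean signal of the test (5.51), so these genes were tested only through the arrays in which they are high, signal over background on the early side is unknown, and the count of 4 supports nothing further. Cd4, the other coreceptor, rose by 1.39 (SE 0.148) and Cd3e, a chain of the T cell receptor complex, by 0.83 (SE 0.0996). Cd79b, a part of the B cell receptor, rose by 1.86 (SE 0.279) and, unlike these, was as high on day 7 (mean 7.98) as on day 28 (7.94).

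The arrays with high Cd8b1 also held transcripts found in developing T cells of the thymus, though not only there. Rag1, the recombinase of antigen receptor genes, was not tested because its mean signal was low, but it stood at 8.27 and 8.11 on day 28, 6.08 in replicate 1 of day 14 and 6.38 in the sham array of day 3. In the other 11 arrays it ran from 2.20 to 4.18. Dntt, which adds bases at receptor joints, and Themis, a signalling protein of thymocytes, were high in the same 4 arrays, with 8.03 and 7.83 in replicate 1 of day 28. Satb1, a chromatin organiser of thymocytes, rose by 0.70 (SE 0.108), but its difference was -0.17 without day 28 and replicate 1 of day 14. The part of such cells in the late side's values was not tested, and without those 3 iron arrays 263 genes passed, 60.8% of them higher late.

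Several genes of white blood cells followed this pattern in part. For Rasgrp1 and Sla, too, all early arrays lay under the minimum of the test, so their differences are given without a fold. Rasgrp1, an activator of Ras in T cells, ran from 4.20 to 4.72 early and from 5.16 to 8.14 late, with a difference of 2.11 (SE 0.236). Ptprc, the common leukocyte antigen CD45, ran from 5.15 to 5.75 early and from 5.95 to 8.39 late, with a difference of 1.92 (SE 0.22). Its early mean of 5.45 lay under the minimum of the test (5.51), so no fold is given. Without day 28 and replicate 1 of day 14 the differences of Rasgrp1 and Ptprc were 1.11 and 1.27 and neither passed. Sla, an adaptor of antigen receptors, had a difference of 2.06 (SE 0.187) and passed in that setting too. Spon2, a secreted matrix protein with a part in innate defence, had a difference of 1.89 (SE 0.213). Its highest array was replicate 1 of day 7 (7.84, against 6.03 to 6.67 in the other late arrays). All its early arrays but replicate 1 of day 1 (5.52) lay under the minimum of the test, so no fold is given.

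Most histone genes, and the score of the cell cycle list, were highest on day 28 among the iron days. Of 17 replication-dependent histone genes, 14 rose and 0 fell (median 0.79). Histone genes are near copies, so their probe sets may share signal. H2ac15 stood at 7.02 to 7.78 early, 8.95 and 8.08 on day 7, 8.46 and 7.36 on day 14, 10.51 and 10.33 on day 28, and 7.71 to 9.98 in sham, and rose by 1.60 (SE 0.193). The count was 6 without day 28 and 1 without day 28 and replicate 1 of day 14. Of 16 cell cycle genes 8 rose and 0 fell (median 0.19). For 1 of the 8, Mcm6, all early arrays lay under the minimum mean signal of the test (5.51). Mcm6 was thus tested only through the arrays in which it is high. Mki67, the proliferation antigen Ki-67, ran from 4.52 to 5.53 early, and its highest early array barely passed that minimum. It stood at 7.56 and 7.39 on day 28 and at 7.22 in the sham array of day 3, with a difference of 1.26 (SE 0.184). For both genes signal over background on the early side is unknown. The cell cycle score was 0.49 and 0.43 on day 28 and 0.29 in the sham array of day 3, but -0.18 in replicate 1 of day 14, within the early range of -0.25 to 0.004. Without day 3 5 of the cell cycle genes passed and without day 28 0 passed in limma, where Mki67 had a difference of 0.59.

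Part of the protein folding response of the endoplasmic reticulum was higher late. Of 25 genes, 11 rose, 1 fell and 13 did not pass (median 0.20). The list score was 0.30 and 0.33 on day 28 and 0.23 in the sham array of day 3, the arrays with the highest thymocyte scores. It was 0.19 and 0.01 on day 7 and -0.14 and -0.03 on day 14. Replicate 1 of day 14, at -0.14, had the next highest thymocyte score (1.12). The part of thymocytes in these rises was not tested. Sdf2l1, a chaperone cofactor, ran from 5.60 to 6.22 early and from 6.47 to 7.15 late without overlap, and rose by 0.90 (SE 0.0775, adjusted p = 6.52e-05). Edem1, which sends misfolded proteins to degradation, rose by 1.08 (SE 0.127), with 8.57 as its mean on day 28 against 7.26 on day 7. The disulfide isomerase Pdia4 rose by 0.62 (SE 0.0876). The count of rises was 3 without day 28, 7 without day 1 or day 3, and 1 without day 28 and replicate 1 of day 14. Ddit3, a factor of prolonged folding stress, was the member that fell.

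**Figure D5:**
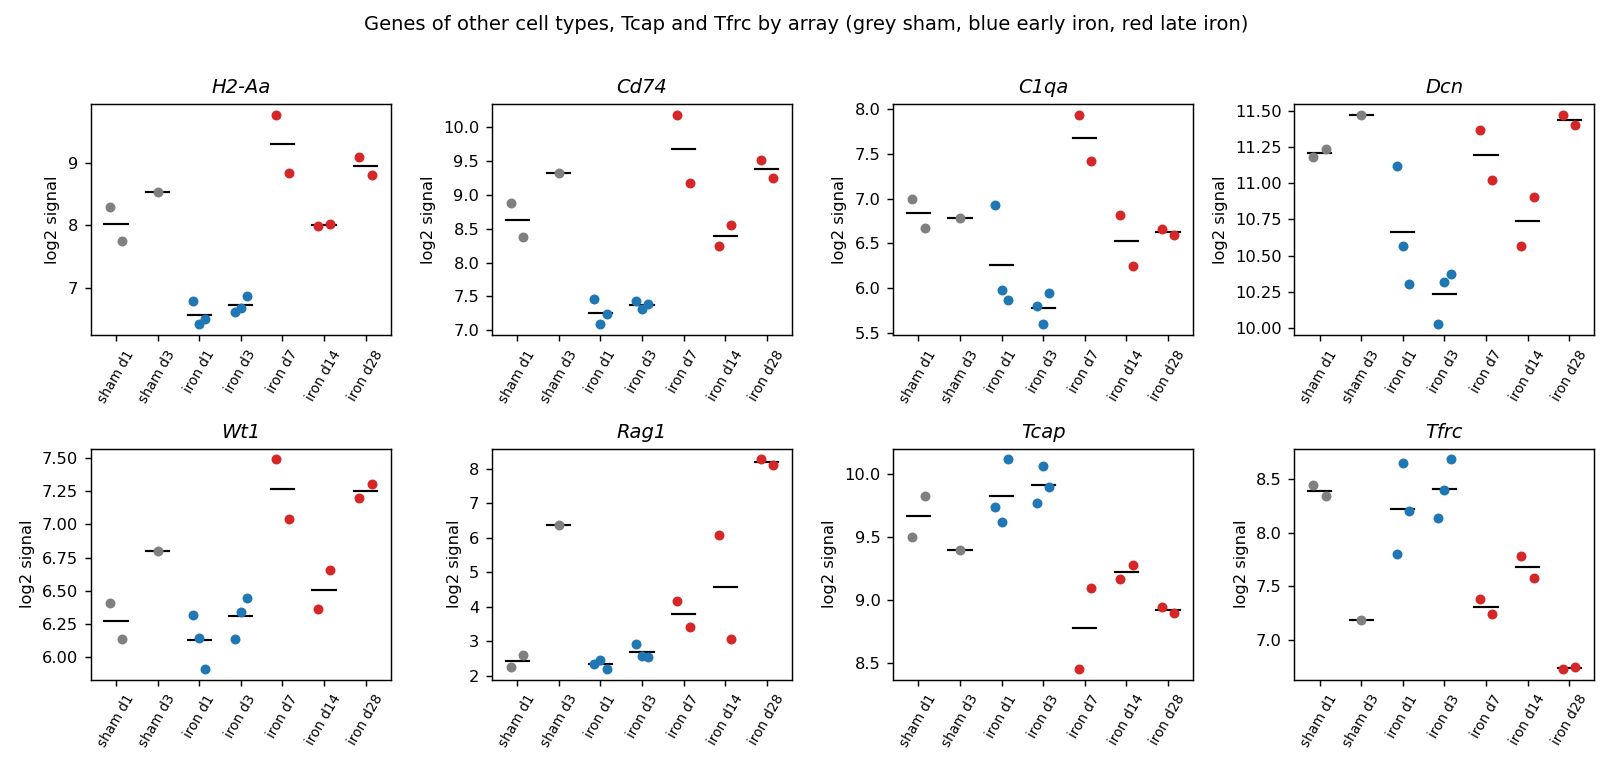
Log2 signal of H2-Aa, Cd74, C1qa, Dcn, Wt1, Rag1, Tcap and Tfrc by group (d is the day), with 1 point per array and a bar at the group mean, grey for sham, blue for early iron and red for late iron. H2-Aa and Cd74 are higher in all late than in all early arrays with sham beside the late side, Rag1 is highest on day 28, and Tcap and Tfrc are lower in all late than in all early arrays.

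Genes of the contractile apparatus fell by small amounts. Of 28 sarcomere and Z-disc genes 11 fell and 0 rose (median -0.12). Tcap, the cap of titin at the Z-disc, fell most. It stood at 9.74, 9.62 and 10.12 on day 1 and 9.77, 10.06 and 9.90 on day 3, and at 8.45 and 9.10 on day 7, 9.16 and 9.28 on day 14, and 8.94 and 8.89 on day 28. All late arrays lay below all early arrays and below the sham arrays, which ran from 9.39 to 9.83. Tcap fell by 0.90 (SE 0.115, 1.86-fold lower, adjusted p = 0.000602). The falls of Mybpc3, a myosin-binding protein, of Xirp2, an actin-binding protein of cell junctions, and of Actn2, the actin crosslinker of the Z-disc, were 0.24, 0.21 and 0.15, each without overlap. Nebl, a thin filament protein, fell by 0.33 (SE 0.0719). The count was 5 with the day 28 pair as 1 replicate, and 3, 6 and 7 without day 1, day 3 and day 28. It was 4 and 6 without replicates 1 and 2 of day 28, and 6 without replicate 3 of day 1 or replicate 1 or 3 of day 3. Of the 12 cardiomyocyte markers 2 fell (Mybpc3 and Ryr2) and 0 rose (median -0.07), with list scores of -0.03 to 0.13 early, -0.15 to -0.03 late and -0.02 to 0.16 in sham, beside the rise of the connective tissue and white blood cell lists in the same arrays, whose part in these falls was not tested.

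Calcium handling and ion channel genes fell in part. Of 17 calcium handling genes 6 fell and 1 rose (median -0.14). The exchanger Slc8a1, which trades calcium for sodium, ran from 9.47 to 9.94 early and from 8.87 to 9.47 late, and fell by 0.42 (SE 0.0705). Casq2, the calcium store protein of the heart, fell by 0.23 (SE 0.0389, no overlap), and Ryr2, through which stored calcium is released, fell by 0.20 (SE 0.0513). Of 18 ion channel genes 5 fell and 0 rose (median -0.21). All 5 encode potassium channels, but so do most genes of that list, so this is no result about potassium channels. Kcnh2, a channel that ends the action potential, ran from 8.32 to 8.81 early and from 7.42 to 8.31 late, and fell by 0.71 (SE 0.117, adjusted p = 0.00233). Kcnq1, a channel of the slow repolarising current, ran from 7.76 to 8.06 early and from 6.98 to 7.57 late, and fell by 0.50 (SE 0.0851). Kcnj12, Kcnj5 and Kcnj3, inward rectifiers, fell by 0.41, 0.51 and 0.37. The count of falls was 3 without day 7 for the calcium list, and 2, 3 and 9 without day 3, day 7 and day 14 for the channels.

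Lists of energy metabolism had small median differences, with more falls than rises outside oxidative phosphorylation. Of 45 genes of oxidative phosphorylation 1 rose and 1 fell (median -0.06). Of 29 genes of glycolysis and the citrate cycle 6 fell and 0 rose (median -0.13), with Ldha, lactate dehydrogenase, at -0.26 (SE 0.0512) and Idh3a, an isocitrate dehydrogenase subunit, at -0.31 (SE 0.0623), both without overlap. That count was 11 without replicate 1 of day 1, 18 without replicate 2 of day 7 and 3 without replicate 1 of day 28, without day 3 or without day 28. The score of this list ran from 0.004 to 0.13 early, from -0.21 to -0.01 late and from -0.03 to 0.02 in sham. Of 28 genes of fatty acid use 5 fell and 1 rose (median -0.14). Acadl, a dehydrogenase of long-chain fatty acids, fell by 0.21, and Pdk4, which shuts glucose carbon out of the citrate cycle, rose by 0.73 (SE 0.209, adjusted p = 0.0316). With the day 28 pair as 1 replicate, or without either of its arrays, 0 of these 28 fell in limma. The count of falls was 1 without replicate 1 of day 3, 2 without replicate 2 or 3 of day 1, replicate 2 of day 3, replicate 1 of day 7 or either array of day 14, and 13 without replicate 2 of day 7. Without day 1, day 3 or day 28 it was 1, 2 or 1.

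Genes of cellular iron handling fell in part. Of 14 tested 5 fell and 1 rose (median -0.17). Tfrc, the transferrin receptor that brings iron into the cell, stood at 7.80, 8.66 and 8.20 on day 1 and 8.14, 8.41 and 8.69 on day 3. It stood at 7.38 and 7.24 on day 7, 7.78 and 7.58 on day 14, and 6.72 and 6.74 on day 28, with sham at 8.45, 8.34 and 7.19. The sides did not overlap, although the lowest early array (7.80) and the highest late array (7.78) nearly met, and the sham array of day 3 lay among the late values. Tfrc fell by 1.08 (SE 0.135, 2.11-fold lower, adjusted p = 0.000528). Slc11a2, an iron transporter, fell by 0.37 (SE 0.0867), and Hmox1, which breaks down haem, rose by 0.57 (SE 0.141) with its highest mean on day 7 (7.21). The count of falls was 2 without replicate 1 of day 28, and 3 without replicate 2 of day 1, of day 3 or of day 28 or replicate 1 of day 7. Without day 1, day 3 or day 28 it was 3, 2 or 3. Pla2g4e, a phospholipase outside these lists, ran from 6.00 to 6.79 early and from 4.83 to 5.92 late, and fell by 1.07 (SE 0.135). Its late mean of 5.39 lay under the minimum mean signal of the test (5.51), so no fold is given.

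Calls in lists tied to radiation injury are given beside shares of 9.97% higher late and 10.7% lower late over all genes tested. Of 13 p53 targets 1 rose and 2 fell (median -0.13), and 0 fell in limma without either array of day 28 or without day 3. Trp53inp1, a stress-induced p53 partner, rose by 0.85 (SE 0.146), and its levels of 9.12 and 9.02 on day 28 and 8.38 in the sham array of day 3 stood above the 7.18 to 8.26 of the other iron arrays. Of 19 DNA damage and repair genes 1 fell (Prkdc, the catalytic subunit of DNA-dependent protein kinase, by 0.24) and 0 rose (median -0.09). Of 16 apoptosis genes 4 rose and 0 fell (median 0.04), among them Casp8, the caspase of death receptors (0.89, SE 0.192), and Birc3, an inhibitor of cell death (0.67, SE 0.119). That count was 2 without replicate 2 or 3 of day 1, replicate 2 of day 3, replicate 1 of day 7, replicate 2 of day 14 or replicate 1 of day 28, 2 without day 28 and 0 without day 3. Of 22 immediate early genes 2 rose and 2 fell (median -0.01), a balance that differed with the early day used: without day 1 0 rose and 6 fell (median -0.32), and without day 3 0 passed (median 0.36). The immediate early genes that rose numbered 5 without replicate 2 of day 7 and 0 without replicate 2 of day 3 or replicate 1 of day 28, and those that fell numbered 4 without replicate 1 of day 7. Of 37 microRNA genes 1 rose and 1 fell. Mir133a-1, which yields a microRNA of muscle, ran from 5.79 to 7.77 early and from 4.74 to 6.23 late, and fell by 1.40 (SE 0.234, adjusted p = 0.00253). Its day 3 mean of 7.46 stood above day 1 (6.09), and sham ran from 5.08 to 6.22. Whether the probe set reads the precursor or the mature microRNA cannot be told apart here.

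The sham arrays did not lie on 1 side. For genes higher late, the sham mean was between the sides and nearer late for 379 (38.1%), nearer early for 213, above both for 283 (28.5%) and below both for 119. For genes lower late, it was between and nearer early for 515 (48.1%), nearer late for 370, above both for 130 and below both for 55. Over all genes tested, 20.1% were between and nearer late, 18% between and nearer early, 28.0% above both and 33.8% below both. By list, members were counted by distance alone, also where the sham mean lay above or below both sides. So counted, it was nearer late than early for 1 of the 18 clock genes tested and 1 of the 27 small nucleolar RNAs. It was nearer late for 6 of 7 class II genes, 13 of 15 fibroblast and 11 of 12 macrophage markers. The same count over all genes tested is not given here, and the shares above measure something else. All these counts describe 3 arrays of days 1 and 3 and carry no test.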

How the data were processed

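The values are log2 signals of a mouse gene array as deposited in the authors' series table (34760 probe sets, 15 arrays, no value missing); the submitters' processing notes name MAS5, with no version or role, and how the table was normalized is not given in the sources used here. No further normalization was applied. Of the probe sets, 21640 carry 1 gene symbol, 1321 several and 11799 none in the platform annotation, and 1 probe set per gene, that with the highest mean over the arrays, gave 19937 genes. The 9969 genes at or above the median mean signal (5.51) were tested. limma 3.58.1 (R 4.3.3) fitted 5 day means to the 12 iron arrays, with an intensity trend, and tested late minus early with days weighted equally. The fit was checked on simulated data. The number of arrays limits precision.

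Genes named by rule are, for each direction, the 12 that moved most and passed without overlap of arrays, and up to 4 members of each list by smallest p. Other genes were named after their values were seen. The comparison, the 47 gene lists (698 genes tested) and the tests were chosen with earlier results of these data known. Alternatives changed the weighting, scaling, filter, trend and arrays used. Whether replicate numbers pair arrays across days is not known, and the main fit treats the arrays as unpaired. Promoters and gene names come from RefSeq tables (GRCm38.p6).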

Additional observations from a re-analysis of the deposited data

Results flagged for a closer look

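On each side of 6 arrays, 24 genes and 46 list scores were searched for 1 array far from the other 5, 140 sides in all. Chance alone picks out about 1 such side in 20, and 21 were found. Replicate 1 of day 1 accounted for 11 of them, all scores in which it was the highest or lowest early array. It stood at 0.30 for extracellular matrix, 0.17 for TGF-beta signalling, 0.37 for fibroblast markers, 0.37 for angiogenesis factors, 0.53 for endothelial markers, 0.25 for macrophage markers and 0.25 for complement. It also stood at -0.51 for class II genes, 0.0761 for apoptosis genes, -0.0625 for oxidative phosphorylation and -0.47 for heat shock proteins. Its values lay nearer to sham than those of the other early arrays for fibroblast, macrophage and endothelial markers. Without it the number of rises went from 11 to 14 for fibroblast, 9 to 10 for macrophage and monocyte, 9 to 10 for complement, 12 to 19 for extracellular matrix, 4 to 14 for endothelial, 2 to 5 for angiogenesis factors and 3 to 6 for TGF-beta signalling genes, and stayed at 6 for class II and 4 for apoptosis genes. The number of falls went from 1 to 4 for oxidative phosphorylation and from 1 to 3 for heat shock proteins.

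Among single genes, replicate 1 of day 7 stood apart on the late side for Spon2 (7.84), Dbp (7.58) and Usp2 (8.74), replicate 2 of day 7 for Arntl (6.77), and replicate 2 of day 1 on the early side for Per1 (6.87). These genes were picked for no overlap of arrays, so it was fixed in advance that each value lay on its own side. For list scores, sarcomere genes stood apart in replicate 3 of day 3 (0.22) and replicate 2 of day 7 (0.00943), ion channels in replicate 2 of day 3 (0.32), glycolysis and the citrate cycle in replicate 1 of day 7 (-0.21), and atrial markers in replicate 3 of day 3 (0.96).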

How the results depend on the processing

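The 2064 genes that passed between the sides became 1142 with arrays weighted equally, 1152 with the day 28 pair as 1 replicate, 673, 1252 and 1057 without day 3, day 7 and day 28, and 263 without day 28 and replicate 1 of day 14 (the last and the single replicate for day 28 were added after seeing the data). Leaving out 1 array gave 1049 to 2662. Within a side the count of 102 became 283 with all 15 arrays, 261 without a filter, 39 with a stricter filter, 0 with the day 28 pair as 1 replicate, and 0 to 396 without 1 array. With the replicate number as a block the counts were 1138 between and 48 within. Deviations from the day means had a median r of 0.06 (-0.39 to 0.57) over 21 pairs of arrays of the same number. On days with 2 arrays these deviations mirror each other, so this cannot decide whether the number is a pairing. Quantile normalization, median centring, no filter, no trend and array weights kept the count between the sides within 1.5 times. The 24 genes named by size kept their call in these settings except Snord82 without day 1 and Rasgrp1 and Ptprc without day 28 and replicate 1 of day 14; the stricter filter tested 15. Over 202 named genes and 5602 differences, 3 changed sign in a gene that passed in the main test or in that setting. These were Casp2 without day 28 (-0.0323) and without day 28 and replicate 1 of day 14 (-0.00232), and Satb1 in the latter (-0.17). Sign changes of genes that passed in neither were not counted, and the cause was not tested. Signal over background is unknown in the deposited values, so low genes such as Rag1 were not tested.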

Other observations

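Some genes outside the lists, chosen after their values were seen, also differed between the sides (limma adjusted p in each case under the threshold). Cxcl13, a chemokine that draws B cells, rose by 2.67 (SE 0.36) from an early mean of 7.10 to a late mean of 9.76, with sham at 7.99. Scd1, a desaturase of fatty acids, rose by 2.17 (SE 0.417). Gpc3, a cell surface proteoglycan, rose by 1.57 (SE 0.126) with no overlap of arrays, and Thy1, a surface antigen of T cells and fibroblasts, by 1.64 (SE 0.183). Among abundant structured RNAs, the Y RNA Rny3 rose by 1.76 (SE 0.238) and Rpph1, the RNA of RNase P, by 0.99 (SE 0.112), both without overlap, and Rmrp, the RNA of RNase MRP, by 0.70 (SE 0.0694). Among the falls, Gpr22, a receptor enriched in heart, had a difference of -0.75 (SE 0.072), Ppat, the first enzyme of purine synthesis, -0.81 (SE 0.103), and Coq10b, which binds coenzyme Q, -0.81 (SE 0.114), each without overlap.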
